A study of Arabidopsis thaliana with 12 samples.

Results

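In Arabidopsis thaliana plants kept in strong red or weak white light, 31 named genes differed between the lights by at most 0.5 on the log2 scale in each of 3 same-numbered pairs of arrays. They were taken from 3439 array features, of which 692 are listed with exactly 1 gene. The plants were wild type of the Landsberg ecotype. Those labelled red200 had spent their last 48 hours in red light at 200 µE, and those labelled white20 had spent 48 hours under 20 µE of white light, with 6 single-channel arrays per condition. Colour and level of the light changed together and cannot be told apart, and the labels do not say which plants or RNA extracts lie behind each array, so the spread between arrays may be partly technical.

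The genes were chosen by measured values. A gene had to have a deposited intensity above 0.1 on all 12 arrays, which 333 of the 691 genes with a feature of their own did. The arrays were then quantile-normalized, which gives every array the same distribution of values, and transformed as log2(intensity + 0.054). Arrays 1 and 2, 3 and 4, and 5 and 6 of a condition are near-duplicates of each other, so each of these was averaged to 1 sample, called a pair below, which leaves 3 samples per condition. In 34 of the 333 genes all 3 red minus white differences lay between -0.5 and 0.5, and the 31 were left after CHLM, CRR21 and AT1G74470 (CHLP) were set aside by name. The remaining 358 genes were too dim on at least 1 array to be considered, so the 31 say nothing about steady genes of low signal.

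The share of genes inside the limits was 10.2% of the 333 named genes, and it was 10.9% of the 1373 features above the same intensity that are listed with several genes or none. Of the other named genes, 28 were higher by more than 0.5 in red light in all 3 pairs, 23 were lower by more than 0.5 in all 3, and 248 went past a limit in some pairs only or in opposite directions. Since the red minus white contrast selected the genes, their differences are given as a description with no test. The annotation places 9 of the 31 on chromosome 1, 6 on chromosome 2 and 3 on chromosome 3. It places 6 on chromosome 4 and 7 on chromosome 5. Of the 333, it places 75, 58, 63, 71 and 64 on chromosomes 1 to 5, and the few others on none of these.

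Only 3 of the 31 have a name beyond their locus in the annotation used. PRK encodes phosphoribulokinase, the Calvin cycle enzyme that regenerates the carbon dioxide acceptor ribulose 1,5-bisphosphate. Its activity is switched on in the light through reduction by thioredoxin, a control that acts on the protein. LAS (Lateral Suppressor, also SCARECROW-LIKE 18) is a GRAS family regulator needed to form axillary meristems, from which side shoots grow. AT2G28390 is MON1 (MONENSIN SENSITIVITY1), which works in membrane traffic to the vacuole and is widely used as a reference gene for transcript measurements in Arabidopsis. The other 28 are given by locus, with no function attached.

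PRK had a normalized intensity of 0.767, 0.626 and 0.729 in red light, against 1.04, 0.609 and 0.601 in white light, in pairs 1, 2 and 3. The groups overlapped, and white pair 1 stood above the other 5 values. Its pair differences of -0.41, 0.04 and 0.26 log2 units ran in both directions and averaged -0.04 ± 0.34 (SD, n = 3 pairs). In pair 1 the near-duplicate arrays of PRK were themselves unlike, with 1.04 and 0.561 on red arrays 1 and 2, against 1.14 and 0.942 on white arrays 1 and 2. The array to array gap in red light was therefore wider than the difference between the light conditions in that pair. In bulk RNA from plants, fewer cells that express a gene and less RNA per cell cannot be told apart.

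Of 26 genes on a list of Arabidopsis reference genes, MON1 alone has a feature of its own on the array, and 2 others lie on features shared with other genes. It had 0.702, 0.736 and 0.599 in red light, against 0.823, 1.01 and 0.678 in white light. All 3 pair differences were negative, at -0.21, -0.43 and -0.17, and the groups overlapped. Its near-duplicates lay close together, with a largest gap of 0.15 log2 units, the smallest such value among the 31 genes. All 6 same-numbered single arrays also differed by at most 0.5. The average of red and white moved by 0.40 between the pair numbers, below the median of 0.71 over the 31 genes.

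LAS had 1.24, 0.640 and 0.323 in red light, against 1.18, 0.874 and 0.471 in white light. Both groups were highest in pair 1 and lowest in pair 3, and they overlapped. Its differences were 0.07, -0.42 and -0.48, which places it close to the limit in 2 of the 3 pairs. The average of its red and white values changed by 1.51 log2 units between pair numbers, while its largest difference between the lights was 0.48.

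**Figure D1:**
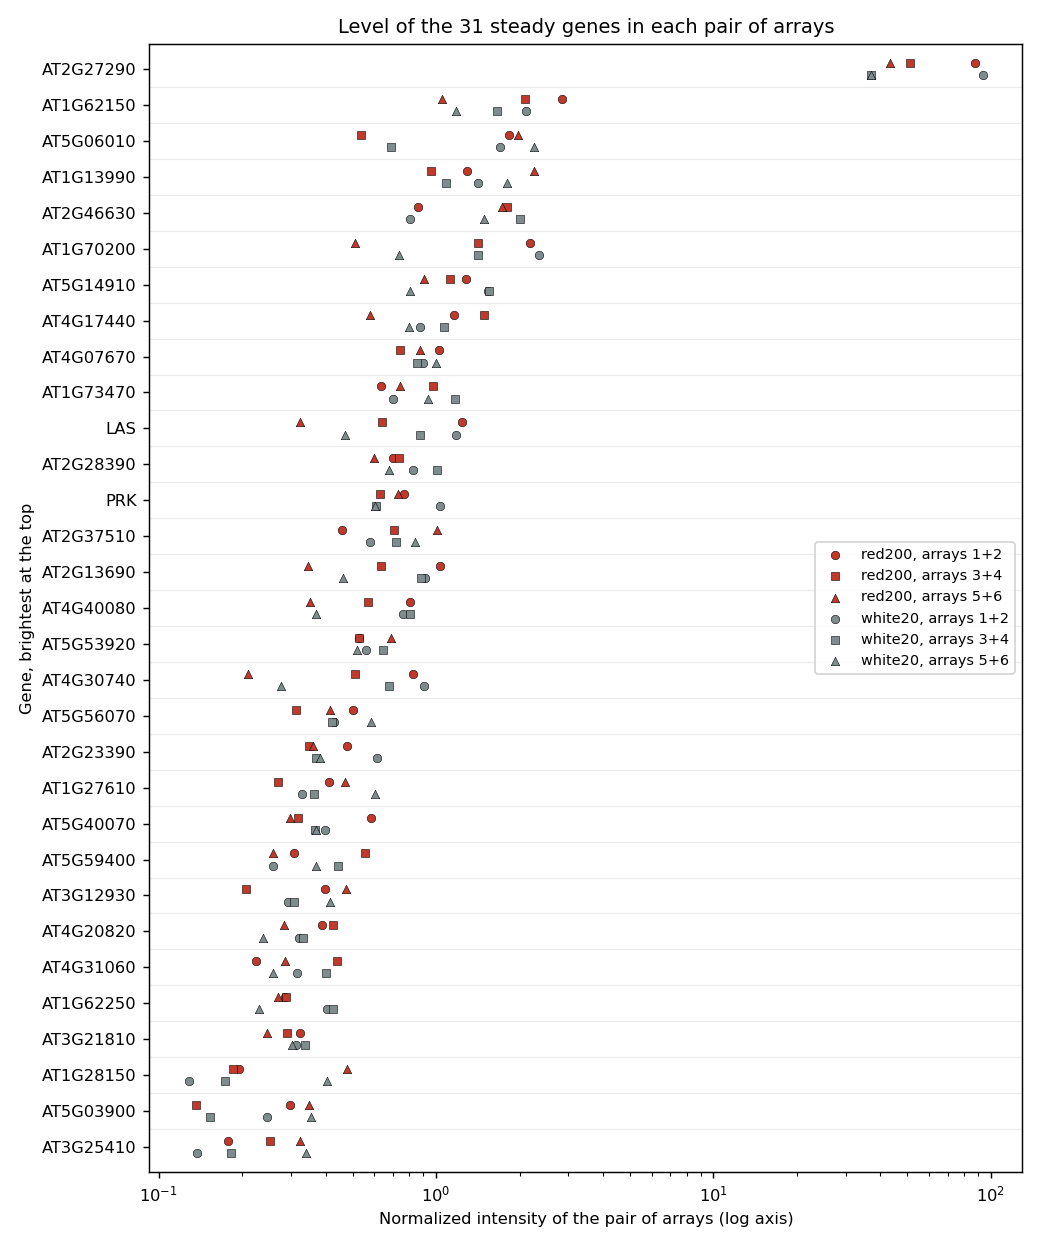
Normalized intensity (log axis) of the 31 genes, brightest at the top. Each gene has 3 red200 points in the upper row and 3 white20 points in the lower row, with the marker shape giving the arrays averaged. AT2G27290 lies apart at 36.9 to 93.5 while the other 30 lie between 0.129 and 2.85, and a red and a white marker of the same shape sit close together even where the shapes are far apart.

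The median level of the 31 genes over the 6 pairs was 0.610, against 0.621 for the 299 other named genes above the intensity minimum. Their lower quartile was 0.357, against 0.452, and their highest level 58.2, against 34.1. The levels ran from 0.236 for AT3G25410 to 58.2 for AT2G27290, with 18 genes above 0.5 and 7 above 1. Only AT2G27290 exceeded 5. These levels and ranks are array signals of features and are not read as amounts of transcript.

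AT2G27290 ranked 3 among all 3438 features by mean level. Its normalized intensity was 87.8, 51.2 and 43.2 in red light, against 93.5, 36.9 and 36.9 in white light. Both groups were highest in pair 1, and they overlapped. On the deposited scale it stood at 100, the highest value in the table, on red arrays 1 and 2, where 1 other feature also stood at 100. It was the brightest feature on white arrays 1 and 2 as well, at 85.0 and 78.5. Features tied at this maximum share an averaged rank in quantile normalization. AT2G27290 therefore got 87.8 on red arrays 1 and 2, and 93.5 on white arrays 1 and 2, where it stood alone at the top. The pair 1 difference of -0.09 comes from this tie and gives no direction. On the deposited scale the pair 1 difference was 0.29, with red values that may be capped. In pair 2 it held rank 5 on both red arrays, against ranks 10 and 8 on the white arrays, and the deposited values were 64.3 and 69.7 in red light, against 21.8 and 23.0 in white light. The pair 2 difference of AT2G27290 was 0.47 after quantile normalization and 1.58 on the deposited scale.

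The next brightest genes were AT1G62150, AT5G06010, AT1G13990, AT2G46630 and AT1G70200. AT1G62150 had 2.85, 2.09 and 1.05 in red light, against 2.10, 1.66 and 1.18 in white light. AT1G13990 had 1.29, 0.963 and 2.26 in red light, against 1.42, 1.08 and 1.79 in white light. AT2G46630 had 0.864, 1.80 and 1.74 in red light, against 0.806, 2.0 and 1.49 in white light. These genes differ in which pair is high: pair 1 for AT1G62150, pair 3 for AT1G13990 and pair 2 for the average of AT2G46630. In each of them the red and the white group overlapped, and the same pair was lowest in both.

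The closest match between red and white light was that of AT4G07670, whose largest pair difference was 0.19. It had 1.02, 0.742 and 0.878 in red light, against 0.901, 0.851 and 0.996 in white light. AT2G46630, AT5G03900 and AT3G21810 followed, with largest differences of 0.21, 0.23 and 0.25. AT5G03900 had 0.297, 0.137 and 0.349 in red light, against 0.246, 0.153 and 0.354 in white light, so that pair 2 was lowest in both. AT3G21810 was almost flat over all samples, with 0.324, 0.289 and 0.245 in red light, against 0.313, 0.336 and 0.303 in white light.

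At the other end, the genes just inside the limit were AT5G40070, AT1G62250, AT1G70200 and LAS, with largest differences of 0.50, 0.49, 0.49 and 0.48. AT5G40070 had 0.584, 0.319 and 0.298 in red light, against 0.398, 0.367 and 0.370 in white light, and its difference came from pair 1. AT1G62250 had 0.285, 0.287 and 0.269 in red light, against 0.403, 0.426 and 0.230 in white light. It was lower in red light in pairs 1 and 2 and higher in pair 3. Just outside were AT3G15900, AT2G47830, AT5G62840 and PAC, with largest differences of 0.5004, 0.51, 0.51 and 0.52. AT3G15900 had 1.05, 1.0 and 0.903 in red light, against 0.725, 0.882 and 1.18 in white light. AT2G47830 had 0.429, 0.236 and 0.229 in red light, against 0.466, 0.358 and 0.269 in white light. In both of them the groups overlapped, and the direction was mixed for AT3G15900 and negative throughout for AT2G47830. AT5G62840 had 1.86, 0.793 and 0.728 in red light, against 1.84, 1.07 and 1.06 in white light. PAC (PALE CRESS), a gene needed for chloroplast development, had 0.399, 0.455 and 0.453 in red light, against 0.490, 0.562 and 0.301 in white light, with pair differences of -0.26, -0.28 and 0.52. The genes on either side of the limit thus differ by hundredths of a log2 unit.

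**Figure D2:**
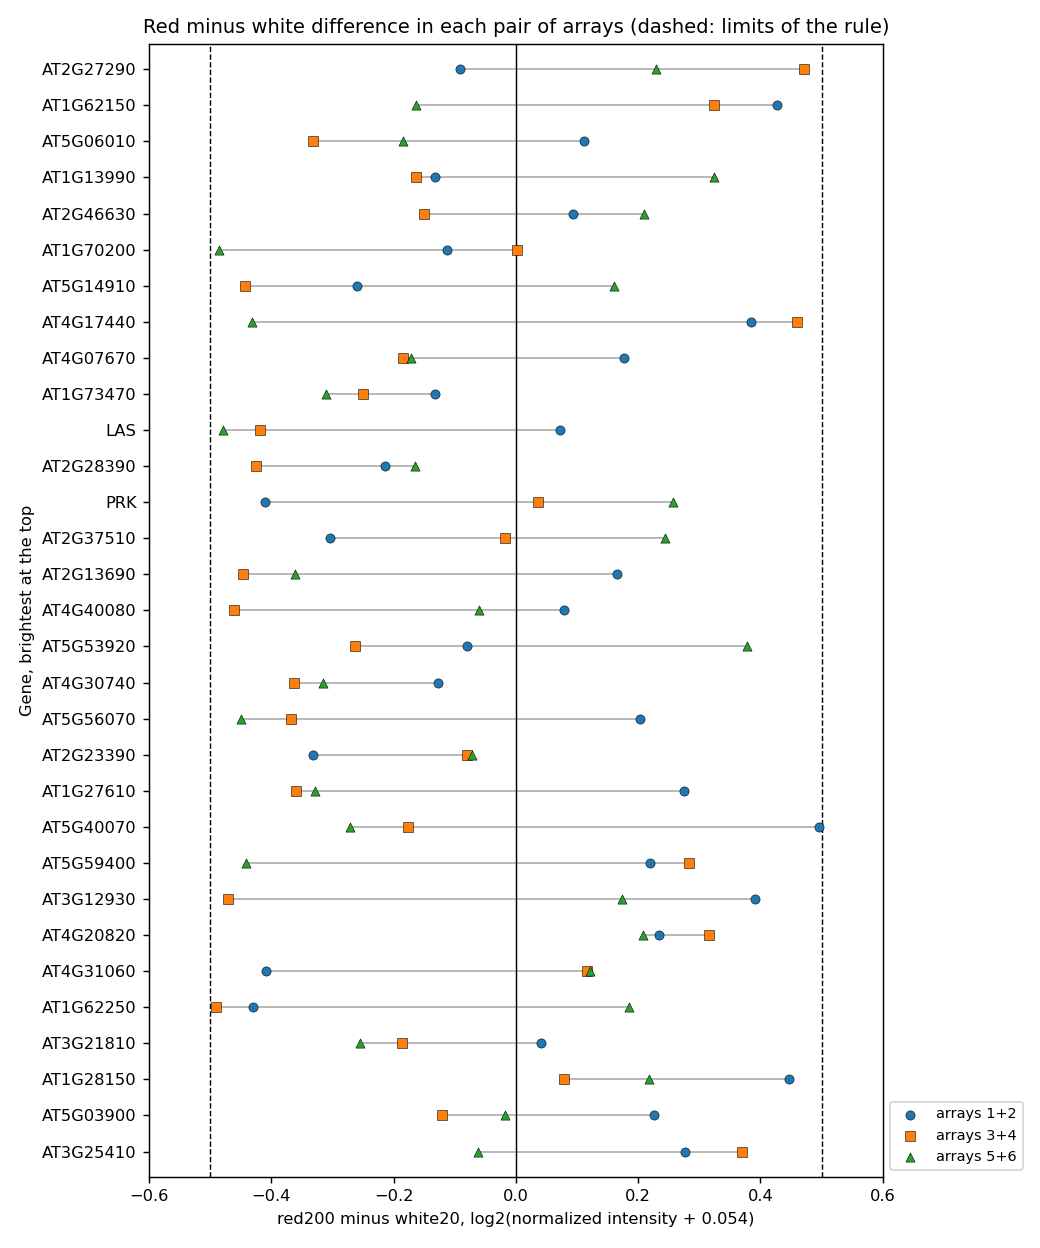
Red minus white difference in log2(intensity + 0.054) after quantile normalization of each of the 31 genes, brightest at the top, with 1 point per pair of arrays and the limits of -0.5 and 0.5 dashed. The points of 25 genes lie on both sides of 0, those of AT4G20820 and AT1G28150 all lie above it, and those of AT1G73470, AT2G28390, AT4G30740 and AT2G23390 all lie below it. With median scaling only AT4G20820 and AT2G23390 of these 6 kept 1 sign.

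Within the limits the sign of the difference was mixed for 25 of the 31 genes, against 151 of the 299 other named genes. Small differences cross 0 more easily, so the selection favours mixed signs. In pair 1 the difference was above 0 for 18 genes, in pair 2 for 10 and in pair 3 for 12. The median difference of the list was 0.08, -0.18 and -0.07 in pairs 1, 2 and 3, close to the 0.08, -0.20 and -0.09 of the 299 other named genes. AT4G20820 and AT1G28150 were the genes with 3 positive differences. AT4G20820 had 0.387, 0.424 and 0.282 in red light, against 0.321, 0.330 and 0.237 in white light, with differences of 0.23, 0.32 and 0.21. AT1G28150 had 0.195, 0.186 and 0.480 in red light, against 0.129, 0.174 and 0.405 in white light, with differences of 0.45, 0.08 and 0.22. With arrays scaled to the same median AT4G20820 stayed positive in all 3 pairs, and AT1G28150 had -0.08 in pair 2.

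MON1, AT1G73470, AT4G30740 and AT2G23390 were the genes with 3 negative differences. AT1G73470 had 0.634, 0.973 and 0.743 in red light, against 0.7, 1.17 and 0.935 in white light. AT2G23390 had 0.477, 0.347 and 0.361 in red light, against 0.614, 0.370 and 0.382 in white light. The mean difference of AT1G73470 was -0.23. Leaving out white array 4 turned it to 0.15, and leaving out white array 3 gave -0.61. With arrays scaled to the same median AT2G23390 alone of the 4 stayed negative in all 3 pairs, as AT1G73470 had 0.01 and AT4G30740 0.05 in pair 1 and MON1 0.06 in pair 3. In none of the 31 genes did the 3 red and the 3 white samples separate. Over all 3438 features they separated in 17.5%, 8.41% with red light higher and 9.08% with red light lower, but the selection itself works against separation, so nothing is read from this comparison. In limma's fit of the 3 red against the 3 white samples, 0.116% of all features passed an adjusted p of 0.05, that is 4 features. When limma's fit also matched the pairs by their number, as a replicate block, 0 features passed, and 645 had a p below 0.05 before adjustment.

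The error of the fitted red minus white difference depended on whether the fit matched the same-numbered pairs. In the fit with that replicate block, the 95% intervals from limma had a median half-width of 0.51 log2 units among the 31 genes, with a range of 0.25 to 0.84. They lay wholly between -0.5 and 0.5 for 5 genes, AT2G46630, AT4G07670, AT2G23390, AT3G21810 and AT5G03900, and wholly between -1 and 1 for all 31. Without the block, where change between the pair numbers enters the error, the median half-width was 0.83, with a range of 0.30 to 1.83. The intervals of 3 genes, AT4G07670, AT5G53920 and AT3G21810, then lay within 0.5 of 0, and those of 18 within 1. For AT4G30740, which moved by 1.64 between pair numbers, the interval was -0.58 to 0.04 with the block and -1.93 to 1.39 without it. With the block AT4G20820 alone of the 31 had an interval that left out 0, from 0.004 to 0.502. Without the block its interval was -0.25 to 0.76. Because the genes were selected on the same differences, these intervals describe the error of the fit and do not carry their nominal coverage. In the fit with the block that error comes from the spread of the 3 pair differences, which the rule had limited. The narrow intervals of that fit and its counts within 0.5 and 1 were therefore set in part by the selection. Without the block the median half-width of the other named genes above the intensity minimum was 1.17. AT5G53920, the flattest gene between pair numbers, had 0.528, 0.526 and 0.689 in red light, against 0.561, 0.642 and 0.518 in white light.

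How far the genes moved between the pair numbers was not set by the rule. For each gene the red and white values of a pair were averaged, and the highest of the 3 averages was set against the lowest. This spread had a median of 0.71 log2 units in the steady genes, against 0.86 in the 299 other named genes, and the ranges ran from 0.12 to 1.80 and from 0.06 to 3.92. It exceeded 1 in 11 of the 31 (35.5%), against 114 of the 299 (38.1%). Genes level between red and white light were thus not, as a list, level between samples. A gene that moves by more than 1 between pair numbers while both lights stay within 0.5 of each other has to move in the same direction in both, which the rule ensures.

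**Figure D3:**
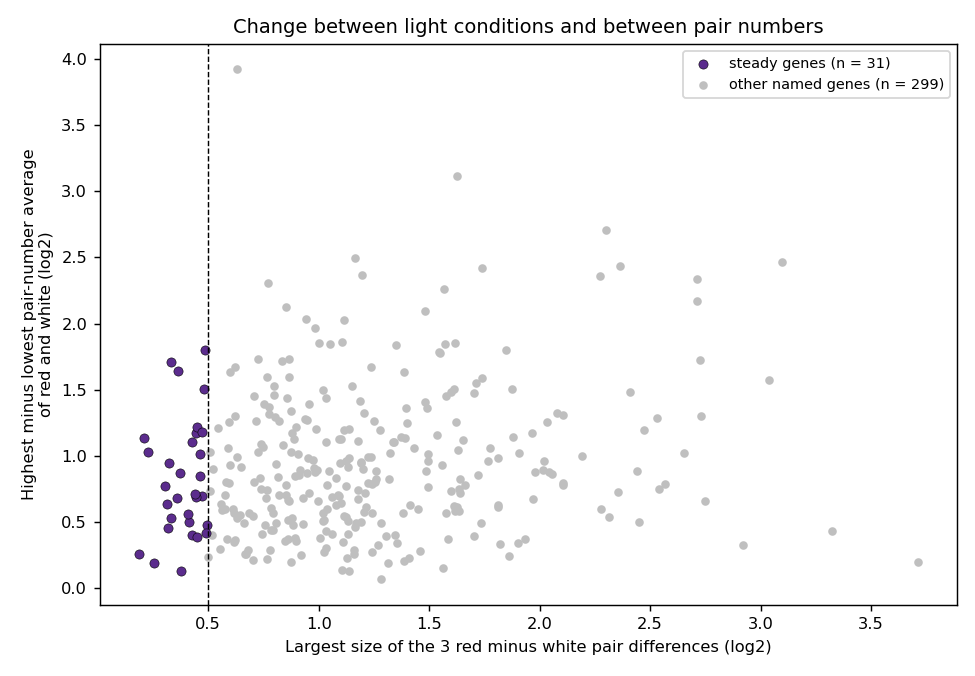
Highest minus lowest pair-number average of red and white (log2, vertical axis) against the largest size of the 3 red minus white pair differences (log2, horizontal axis), with 1 point per named gene above the intensity minimum and the limit of 0.5 dashed. The 31 steady genes on the left reach up to 1.80 on the vertical axis, within the range of the 299 other genes.

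The widest such changes were those of AT1G70200, AT5G06010, AT4G30740 and LAS, at 1.80, 1.71, 1.64 and 1.51 log2 units. AT1G70200 had 2.18, 1.42 and 0.510 in red light, against 2.36, 1.42 and 0.736 in white light. AT4G30740 had 0.828, 0.512 and 0.210 in red light, against 0.908, 0.674 and 0.275 in white light. Both genes shared the order of LAS, with pair 1 highest and pair 3 lowest. AT5G06010 had a different order, with 1.84, 0.536 and 1.98 in red light, against 1.70, 0.689 and 2.25 in white light, so that pair 2 was lowest in both.

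In the averages of red and white, the order with pair 1 highest and pair 3 lowest was found in 7 of the 11 genes that moved by more than 1. Besides AT1G70200, AT4G30740 and LAS these were AT2G27290, AT1G62150, AT2G13690 and AT4G40080. AT2G13690 had 1.03, 0.634 and 0.347 in red light, against 0.913, 0.883 and 0.461 in white light. AT4G40080 had 0.805, 0.570 and 0.351 in red light, against 0.759, 0.804 and 0.369 in white light. Over all 31 genes this order was found in 10. Pair 1 was highest in 13 of the 31, against 91 of the 299 other named genes and 1280 of all 3438 features. Pair 3 was lowest in 14, against 111 of the 299 and 1272 of the 3438. How often the whole order occurs outside the 31 is not given here, so it is not read as a trait of the list. AT1G28150, listed above, and AT3G25410 ran the other way, with pair 3 highest in both lights. AT3G25410 had 0.178, 0.251 and 0.325 in red light, against 0.138, 0.182 and 0.341 in white light. The pair numbers are names of samples without an order of their own.

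**Figure D4:**
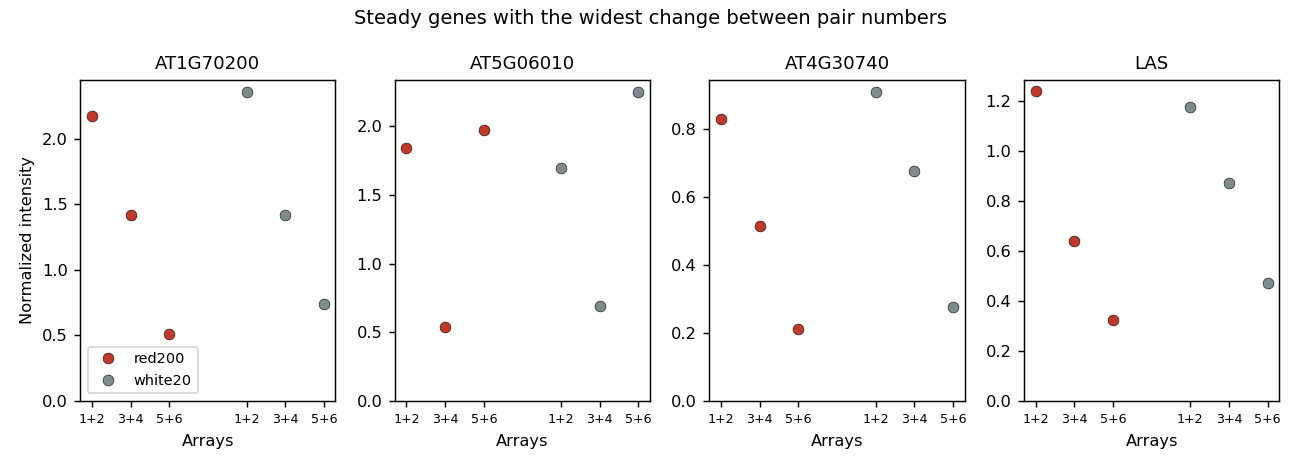
Normalized intensity (linear axis from 0) of the 4 steady genes with the widest change between pair numbers, with 1 point per pair of arrays, red200 on the left and white20 on the right of each panel. AT1G70200, AT4G30740 and LAS are lowest in arrays 5+6 and AT5G06010 in arrays 3+4, in both lights.

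Genes that stayed level over every combination of samples were few. When each of the 3 red samples was set against each of the 3 white samples, whatever their numbers, all 9 differences were at most 0.5 for 3 of the 31 genes. They were AT4G07670, AT5G53920 and AT3G21810. The same held for 23 of the 1373 features above 0.1 listed with several genes or none. Over all 3438 features, dim ones included, it held for 362. All 9 were at most 1 for 18 of the 31, against 252 of the 1373 and 755 of the 3438. The range over all 6 samples had a median of 1.02 log2 units, against 1.72 in the 299 other named genes. Since the rule limits 3 of the 9 combinations, the counts of the 31 and their narrower range were set in part by the selection.

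The averaging of near-duplicates hid some unlike values. The rule did not use the difference between arrays of the same pair, whose median size was 0.15 log2 units in the steady genes, against 0.13 in the 299 other named genes. The largest such gap of a gene exceeded 1 in 4 of the 31 genes (12.9%), against 37 of the 299 (12.4%). The widest was that of AT1G73470, which had 0.502 and 2.62 on white arrays 3 and 4, a gap of 2.27. Its other 10 arrays ran from 0.605 to 1.06, so white array 4 stood alone. AT4G07670, the gene with the smallest pair differences, had 0.481 and 1.13 on red arrays 3 and 4, against 0.743 and 0.974 on white arrays 3 and 4. AT4G17440 had 1.76 and 0.757 on red arrays 1 and 2, against 1.08 and 0.707 on white arrays 1 and 2. When the rule was applied to the 6 same-numbered single arrays, 11 of the 31 genes stayed within the limit on all 6, MON1 and AT5G53920 among them.

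Some of these gaps had the same direction and size in both lights. AT5G06010 had 1.01 and 3.32 on red arrays 1 and 2, against 0.933 and 3.06 on white arrays 1 and 2, a change of 1.67 in red light and 1.66 in white light from the first array to the second. From array 3 to array 4, AT4G20820 differed by -0.81 in red light and by -0.74 in white light, and AT1G27610 by -0.55 in red light and by -0.77 in white light. Across the 31 genes, which are not independent replicates and share the arrays, the gap in red light and the gap in white light correlated at Pearson's r of 0.63 for arrays 1 and 2, 0.46 for arrays 3 and 4 and 0.29 for arrays 5 and 6. In the 299 other named genes the values were 0.39, 0.38 and 0.15, and over all 3438 features 0.40, 0.24 and 0.16. A gap in 1 light only shifts 1 pair mean, so the rule may favour genes with shared gaps, which was not tested. For arrays 1 and 2 of the 31 genes, AT5G06010 is the far point. Spearman's rho there was 0.32, against 0.26 in the 299 and 0.28 over all features. The 2 gaps had the same sign in 61.3%, 77.4% and 54.8% of the 31 genes for arrays 1 and 2, 3 and 4, and 5 and 6. The shares were 60.2%, 54.8% and 54.8% in the 299, and 59.1%, 60.8% and 55.0% over all features. Arrays with the same number in red and white light therefore shared deviations beyond those of their pair, and what they share was not tested.

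The choice of scaling decided which genes counted as steady. On the deposited scale the median intensity of red arrays 1 to 4 was 0.417 to 0.471 and that of red arrays 5 and 6 was 0.237 and 0.233, against 0.237 to 0.289 on the 6 white arrays. The log2 ratio of the red to the white array medians was 0.83, 0.68 and -0.22 in pairs 1, 2 and 3. Without scaling, the differences of the 31 genes had medians of 0.85, 0.44 and -0.14 in the 3 pairs. They were above 0 for all 31 genes in pairs 1 and 2 and for 11 in pair 3. Of the 299 other named genes, 244, 202 and 142 were above 0 in pairs 1, 2 and 3. Because the rule holds their normalized differences near 0, the 31 largely follow the array medians on this scale. Of the 31, only AT1G62250 stayed within the limits in all 3 pairs, with 0.36, 0.14 and -0.04.

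With each array divided by its median, 20 of the 31 genes stayed within the limits, and MON1 had differences of -0.04, -0.36 and 0.06. PRK had -0.16, 0.10 and 0.61 on that scale and so left the limits in pair 3, as did AT1G13990 at 1.02 and AT2G46630 at 0.86. AT2G27290, the brightest of the 31, had -0.54, 0.90 and 0.53 and lay outside the limits in all 3 pairs. LAS had 0.25, -0.34 and -0.51. AT1G62250 was the only gene of the 31 within the limits under all 3 scalings. A gene is therefore called steady here relative to the bulk of the features on its array, and whether the amount of signal per array differed between the plants was not tested.

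**Figure D5:**
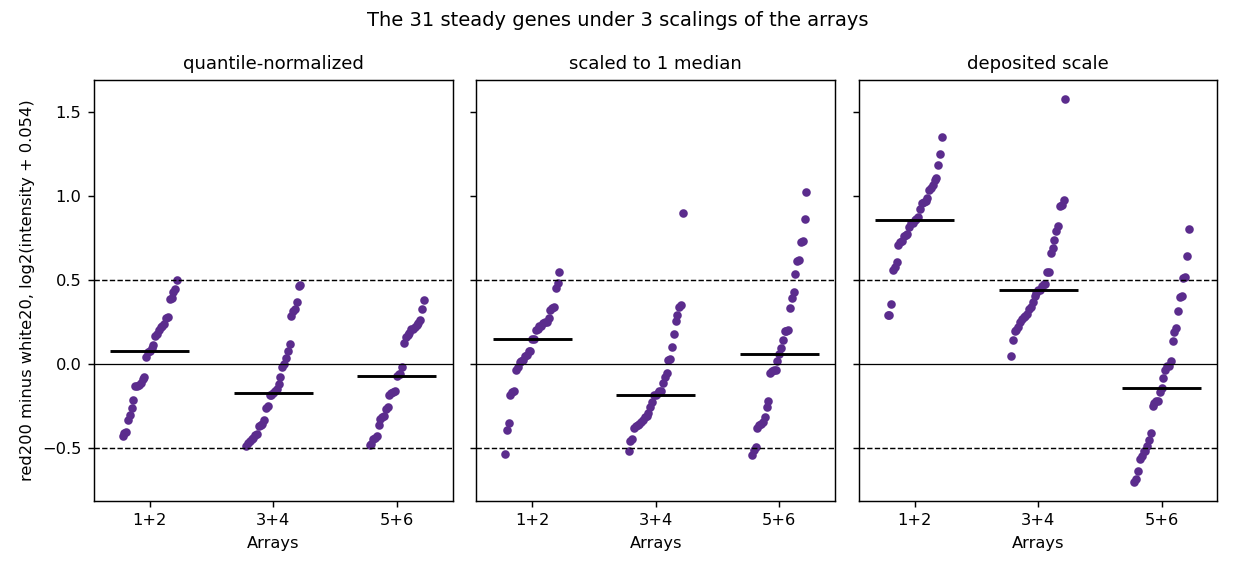
Red minus white difference in log2(intensity + 0.054) of the 31 genes in each pair of arrays, after quantile normalization, after scaling each array to the same median, and on the deposited scale, with 1 point per gene in order of size, the median as a bar and the limits of -0.5 and 0.5 dashed. On the deposited scale the medians of arrays 1+2 and 3+4 lie at 0.85 and 0.44, and the median of arrays 5+6 lies at -0.14.

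AT2G25870 shows how far 2 features of 1 gene can part on this array. One of its features met the rule, with 0.420, 0.449 and 0.371 in red light, against 0.397, 0.514 and 0.252 in white light, and differences of 0.07, -0.17 and 0.47. The other had 1.15, 0.735 and 0.672 in red light, against 0.303, 0.304 and 0.161 in white light, and differences of 1.75, 1.14 and 1.75. The red and the white samples did not overlap on the second feature. Features of the same gene were averaged before the rule was applied, so AT2G25870 is not among the 31. It is the only named gene with more than 1 feature, so this check could not be made for any of the 31.

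Of the genes not yet described, AT5G14910 was the brightest. It had 1.28, 1.12 and 0.904 in red light, against 1.54, 1.55 and 0.803 in white light. AT2G37510 had 0.458, 0.705 and 1.01 in red light, against 0.578, 0.715 and 0.840 in white light. Both lights of AT2G37510 were lowest in pair 1 and highest in pair 3, and AT5G14910 was lowest in pair 3 in both. AT5G56070, AT1G27610, AT5G59400, AT3G12930 and AT4G31060 lay between 0.206 and 0.605 in all samples. AT5G59400 had 0.309, 0.553 and 0.258 in red light, against 0.258, 0.444 and 0.369 in white light. AT3G12930 had 0.400, 0.206 and 0.473 in red light, against 0.292, 0.306 and 0.413 in white light, with differences of 0.39, -0.47 and 0.17. Pair 3 was highest in both lights, while pair 2 was lowest in red light and pair 1 in white light.

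The labels name no tissue. Of 4 photosynthesis genes outside the list, PSBW, a photosystem II subunit, had a mean level of 34.0 over the 6 samples, and LHB1B2 (LHCB1.5), a chlorophyll a/b-binding antenna gene, had 11.8. PSBY and PSAN, subunits of photosystems II and I, had 1.83 and 2.85. Signals of different features cannot be compared as amounts of transcript and their background is unknown, so the tissue content was not read from these values. As genes outside the list the 4 lay past the limits, so this is not read as a result. PSBW and PSBY were higher in red light in all 3 pairs, with largest differences of 2.11 and 0.85. PSAN was lower in all 3, with -1.03 as its largest. LHB1B2 had 0.23, -1.60 and -1.03 in pairs 1, 2 and 3.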

How the data were processed

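Each of the 12 arrays has a column of linear intensity values in the table that the authors deposited. Background correction and scaling by the authors are not given in the sources used here, and signal over background is unknown; the number of arrays limits the precision. Genes were named from GEO's platform annotation, and 690 of the 692 features with 1 gene found a symbol through their Entrez identifier among the RefSeq genes of TAIR10.1. That table holds no gene descriptions or sequences, so pentatricopeptide genes were sought in its names and synonyms (none among the genes within the limits), and the planned grouping by product text and counts of promoter words were not run.

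Arrays were quantile-normalized and put on the log2 scale after adding 0.054, which is percentile 5 of all values above 0, and features of 1 gene were averaged. The pseudocount understates the fold change of dim genes. A level of a pair is the back-transformed mean of its 2 arrays. Near-duplicate arrays had rank correlations of 0.91 to 0.989, against 0.641 to 0.821 for other arrays of a group. All features were fitted with limma 3.58.1 in R 4.3.3 (lmFit, eBayes, Benjamini-Hochberg adjusted p under 0.05). The fit was also run on simulated data with independent noise and large known changes. That run does not tell how the fit behaves with the shared deviations of these arrays. The other steps used Python 3.11.15. The deviations of same-numbered pairs from their group means correlated at 0.125, 0.466 and 0.376 over all features, each above 0.1. Same-numbered pairs were treated as matched in the pair differences and in the fit with the replicate block. The limma fit that called 4 features did not match them. The match rests on this check and not on the labels.

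The genes and lists were chosen with earlier results of these data known. Values in every sample are given for the 6 brightest genes, the 4 with the smallest largest pair difference, the 4 that moved most between pair numbers, the 4 nearest the limit on each side, the reference gene, and further members added after their values were seen. Alternatives covered the scaling, the pseudocount, the limits and the arrays used.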

Additional observations from a re-analysis of the deposited data

How the results depend on the processing

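The number of steady genes, 31, depended on how the arrays were scaled. It was 20 on the deposited scale, with only 1 of the 31 among them, and the median size of the mean difference of the 31 genes went to 0.377 there, against 0.148 after quantile normalization. With arrays scaled to the same median it was 28, of which 20 were shared. The pseudocount multiplied by 4 gave 61 genes, and divided by 4 it gave 25. A limit of 0.25 gave 3 genes and a limit of 1 gave 140. With no filter on low values the count was 109, with a minimum of 0.2 it was 21, and over the 6 single arrays it was 11. Leaving out 1 array gave 25 to 35 genes. With alternatives added after seeing the data, the count was 61, 58 and 81 without arrays 1 and 2, 3 and 4, or 5 and 6 of both groups, where only 2 pairs had to stay within the limits, and 32 with features of the same gene not averaged.

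The mean differences of all 31 genes shifted upward on the deposited scale, by a median of 0.479, and 27 moved by more than the SD over their pairs. With median scaling 5 genes did so, and in each other alternative at most 2.

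The 4 features past an adjusted p of 0.05 in limma became 27 without scaling, 1 after division by the array medians, 2 when the pseudocount was multiplied by 4 and 1 without the dimmest 25% of features. With the replicate block, which takes the pair number as a block, limma called 0, with 645 at an unadjusted p under 0.05. The intervals of the 31 genes under this block were added after seeing the data. Taking the 12 arrays as separate samples gave 564 calls, but counts near-duplicates as independent. Leaving out 1 array gave 0 to 5, with 0 without white array 1 (459 at an unadjusted p under 0.05) and 2 without white array 5. Without arrays 1 and 2, 3 and 4, or 5 and 6 of both groups, 0 passed in limma, with 358, 246 and 626 at an unadjusted p under 0.05.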
